A study of Homo sapiens with 6 samples.

Results

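Metallothioneins, the metal-responsive transcription factor MTF1 and 3 zinc transporters were examined in cardiomyocytes made from the WTC11 line, established human stem cells of the induced pluripotent kind. The 10 genes were chosen by symbol, and all 10 were found among the 38557 genes listed in the deposited count files. They comprised the metallothioneins MT1E, MT1F, MT1G, MT1M, MT1X and MT2A, the factor MTF1, the zinc exporter SLC30A1, and the metal importers SLC39A8 and SLC39A14. Polyadenylated RNA was sequenced from 3 biological replicates kept in RPMI with the serum-free supplement B27 and from 3 kept in DMEM with added fatty acids. Both groups carry the label WT, and neither the composition of the media, their zinc content nor the time in them is given in the sources used here. The comparison asks which transcripts differ between the media, and since the supplement changes together with the base medium, the effects of the 2 cannot be told apart.

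Metallothioneins are small cysteine-rich proteins that bind zinc and copper in the cytosol and buffer the free metal. When free zinc rises, it occupies the zinc fingers of MTF1, which then binds metal response elements in the promoters of the metallothionein genes and of SLC30A1 and raises their transcription. SLC30A1 (ZnT1) carries zinc out of the cell across the plasma membrane, whereas SLC39A8 (ZIP8) and SLC39A14 (ZIP14) bring zinc, manganese and iron in. Metallothionein genes are also known to respond to glucocorticoids and to oxidants.

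The coding sequences of MT1E, MT1F and MT2A are shown because the results turn on how these near-identical genes differ between media. The 6 metallothionein genes lie on chromosome 16 between positions 56608199 (MT2A) and 56684196 (MT1X), MT1F at chr16:56657694-56660698 and MT1E at chr16:56625475-56627112, both on the plus strand (GRCh38). The sequences were read from GENCODE release 29 transcripts (GRCh38), start to stop codon, with the in-frame cysteine codons TGC and TGT in capitals.

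MT1E: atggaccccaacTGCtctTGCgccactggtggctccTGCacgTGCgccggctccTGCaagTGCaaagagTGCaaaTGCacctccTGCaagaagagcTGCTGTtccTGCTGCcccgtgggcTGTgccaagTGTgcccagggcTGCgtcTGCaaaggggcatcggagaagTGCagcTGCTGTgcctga
MT1F: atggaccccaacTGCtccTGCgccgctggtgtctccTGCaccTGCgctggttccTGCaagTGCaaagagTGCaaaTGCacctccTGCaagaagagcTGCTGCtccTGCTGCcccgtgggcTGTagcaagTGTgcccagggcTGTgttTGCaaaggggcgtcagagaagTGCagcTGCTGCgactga
MT2A: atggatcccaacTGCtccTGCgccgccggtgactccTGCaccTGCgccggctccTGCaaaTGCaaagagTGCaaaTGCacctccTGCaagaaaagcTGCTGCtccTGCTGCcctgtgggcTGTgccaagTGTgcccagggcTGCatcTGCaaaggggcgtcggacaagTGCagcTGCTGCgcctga

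Each of the 6 metallothionein coding sequences held 20 cysteine codons, 32.3% to 32.8% of its codons before the stop. MT1G was 189 bases long and the other 5 were 186 bases long. MT1E and MT1F were identical at 171 of 186 positions (91.9%), MT1E and MT2A at 172 (92.5%), and MT1F and MT2A at 170 (91.4%). Such closeness matters for counting, since a read that aligns to more than one place was set aside by the authors. Of all stretches of 50 bases in the annotated transcripts of a gene, the share found also in another gene was 16.5% for MT1G, 18.3% for MT1X, 9.87% for MT1M, 7.10% for MT1E, 3.02% for MT2A and 1.22% for MT1F. At 100 bases the share was 0 for each of these except MT1X, at 11.3%, all of it shared with the overlapping gene AC026461.1. AC026461.1 lies on the same strand and covers 18.1% of the exonic length of MT1X, so MT1X counts are uncertain, and the read length is not given in the sources used here. These shares pool all annotated transcripts of a gene. Merged exons span 1.889 kb for MT1F and 1.773 kb for MT1X, against 0.69 and 0.45 kb for the principal GENCODE transcript. The share within the principal transcript alone was not computed and may be larger.

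The 250 bases before the RefSeq start are shown for MT2A, MT1X and SLC30A1, since the metal response element ties these 3 genes to MTF1. Capitals mark matches to its core, searched on both strands as TGCACNC or TGCGCNC. A match on the other strand reads GNGTGCA or GNGCGCA here. The windows are from the RefSeq promoter table (GRCh38.p14), MT2A at chr16:56608334-56608583 on the plus strand, MT1X at chr16:56682220-56682469 on the plus strand and SLC30A1 at chr1:211579162-211579411 on the minus strand.

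MT2A: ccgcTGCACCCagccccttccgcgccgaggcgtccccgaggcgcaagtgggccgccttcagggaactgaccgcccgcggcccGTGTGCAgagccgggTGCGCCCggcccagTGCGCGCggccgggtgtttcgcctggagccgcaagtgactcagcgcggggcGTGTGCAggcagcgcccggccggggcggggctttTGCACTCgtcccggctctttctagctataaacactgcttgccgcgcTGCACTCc
MT1X: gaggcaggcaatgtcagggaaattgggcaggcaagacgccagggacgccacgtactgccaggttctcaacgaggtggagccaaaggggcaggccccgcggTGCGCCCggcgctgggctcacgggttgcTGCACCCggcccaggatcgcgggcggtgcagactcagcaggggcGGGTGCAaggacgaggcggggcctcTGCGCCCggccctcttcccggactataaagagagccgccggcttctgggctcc
SLC30A1: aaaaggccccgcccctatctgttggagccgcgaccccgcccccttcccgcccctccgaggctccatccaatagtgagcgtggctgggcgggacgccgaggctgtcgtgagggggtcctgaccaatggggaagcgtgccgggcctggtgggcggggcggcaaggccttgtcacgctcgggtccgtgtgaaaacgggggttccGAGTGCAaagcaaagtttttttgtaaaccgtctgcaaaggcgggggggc

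The MT2A window held 7 matches to the metal response core, 5 of them on the strand of the gene, and the MT1X window held 4. Among the 35116 windows of this length in the table, 24.8% held at least 1 match, 0.37% at least 4 and 0.0313% at least 7. SLC30A1 held 1 match, 49 bases before its RefSeq start. That start lies upstream of the GENCODE gene, whose first base on the minus strand is 211578742, and the bases between were not searched. The MT2A window lies inside its GENCODE gene, which starts at 56608199. The MTF1 window held 0, and among the 3 start sites listed for SLC39A8 a single match was found. An antioxidant response core (TGAC, then 3 bases, then GC, either strand) was present once each in the MT2A, MT1X and SLC30A1 windows and in 10.9% of all windows. The glucocorticoid response element (AGAACA, then 3 bases, then TGTTCT) had no match in any window of these 5 genes, with up to 2 mismatches allowed, a form found in 1.18% of all windows. Bases further upstream and more divergent forms were not searched, so the element cannot be called absent from these promoters. All matches describe letters in the windows and not binding.

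The libraries held 23232324 to 31035389 gene counts. Levels are given as CPM, counts scaled to a common library size, with TMM, a factor that evens out composition between libraries. Differences are log2 fold changes, positive where DMEM plus fatty acids was higher, with standard errors from edgeR's quasi-likelihood test. Adjusted p values are Benjamini-Hochberg over the 16107 genes that passed a filter on low counts, with a threshold of 0.05. Of the 10 genes, 9 passed that filter, MT1M being the exception. The labels call the samples biological replicates without saying what separates them, so the p values measure only the spread between these samples, which may be technical.

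None of the 9 tested genes passed the threshold, 8 having a positive log2 fold change (51.0% of all tested genes did) and 1 a negative one. By the same test 0.292% of all tested genes were called higher and 1.07% lower, so 0 of 9 is close to the share over all genes. At an unadjusted p under 0.05 there were 2 of the 9, MT1F and MT2A, both higher, against 7.70% of all tested genes that were higher at that level. With the replicate number as a block, which pairs libraries of the same number, 1 of the 9 was called (MT1F, higher), where 1.36% of all genes were called higher and 3.42% lower. The DESeq2 Wald test called 2 (MT1F and MT2A, both higher), where 2.01% of genes with an adjusted p were called higher. In 6 of the 9 (MT1E, MT1F, MT1X, MT2A, SLC30A1 and SLC39A8) the CPM was higher in DMEM plus fatty acids in each of the 3 pairs, as it was for 25.8% of all tested genes. Those 6 were also higher in each pair under scaling by total counts.

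MT1F had the largest difference of the group. Its counts were 9, 21 and 20 in RPMI plus B27 (replicates 1 to 3) and 51, 99 and 97 in DMEM plus fatty acids, or 0.339, 0.893 and 0.746 CPM against 2.20, 3.31 and 2.88 CPM. All 3 DMEM plus fatty acids libraries lay above all 3 RPMI plus B27 libraries, a separation in this direction that 12.8% of tested genes showed. The mean was 0.659 ± 0.287 CPM against 2.79 ± 0.562 CPM (SD, n = 3 each), 4.24-fold higher, and the ratio was 6.48, 3.71 and 3.86 in pairs 1, 2 and 3. The log2 fold change was 2.08 ± 0.41 (SE) with an edgeR adjusted p of 0.0610, and 99.8% of tested genes had a smaller one. With the replicate block it was 2.13 ± 0.32 with an adjusted p of 0.0255. The 11 alternatives that gave a value for MT1F ran from 1.77 to 2.36 in log2 fold change and from 0.000157 to 0.206 in adjusted p.

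MT2A, the gene of the MT2 isoform, had the next largest difference. Its counts were 40, 59 and 50 in RPMI plus B27 and 70, 141 and 258 in DMEM plus fatty acids, or 1.51, 2.51 and 1.86 CPM against 3.01, 4.72 and 7.65 CPM. The media did not overlap, and DMEM plus fatty acids replicate 3 was the highest library by a wide margin. The mean was 1.96 ± 0.508 CPM against 5.13 ± 2.34 CPM (SD, n = 3 each), 2.61-fold, with pair ratios of 2.00, 1.88 and 4.10. edgeR gave a log2 fold change of 1.39 ± 0.40 (SE) with an adjusted p of 0.141, which was 0.0714 with the replicate block and 0.0169 by DESeq2 (0.0169 to 0.287 over 12 alternatives). Without DMEM plus fatty acids replicate 3 it was 0.99.

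MT1X had 1.05, 2.68 and 1.79 CPM in RPMI plus B27 and 2.41, 5.18 and 3.17 CPM in DMEM plus fatty acids. The media overlapped, because RPMI plus B27 replicate 2 lay above DMEM plus fatty acids replicate 1, while within each pair the ratio was 2.29, 1.93 and 1.77. Its log2 fold change was 0.97 ± 0.43 (SE) with an edgeR adjusted p of 0.304. MT1E had 2.30, 4.64 and 3.80 CPM against 2.97, 5.58 and 6.14 CPM, with smaller pair ratios of 1.29, 1.20 and 1.61. Its media overlapped too, and the log2 fold change was 0.46 ± 0.37 (SE) with an edgeR adjusted p of 0.569. For both genes replicate 1 was the lowest library of its medium.

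MT1G and MT1M were near the limit of counting. MT1G had 8, 14 and 2 counts in RPMI plus B27 and 12, 15 and 21 in DMEM plus fatty acids, with pair ratios from 0.842 to 8.35. Its log2 fold change was 0.78 ± 0.61 (SE) with an edgeR adjusted p of 0.551. It was 1.52 without RPMI plus B27 replicate 2 and 0.30 without RPMI plus B27 replicate 3, which held 2 counts. MT1M had 1, 2 and 0 counts in RPMI plus B27 and 0, 1 and 0 in DMEM plus fatty acids, so it was not tested and no difference was detectable at this depth. A count of 0 allows up to 3 counts, which is 0.0967 to 0.129 CPM of the library total (counting error only).

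**Figure D1:**
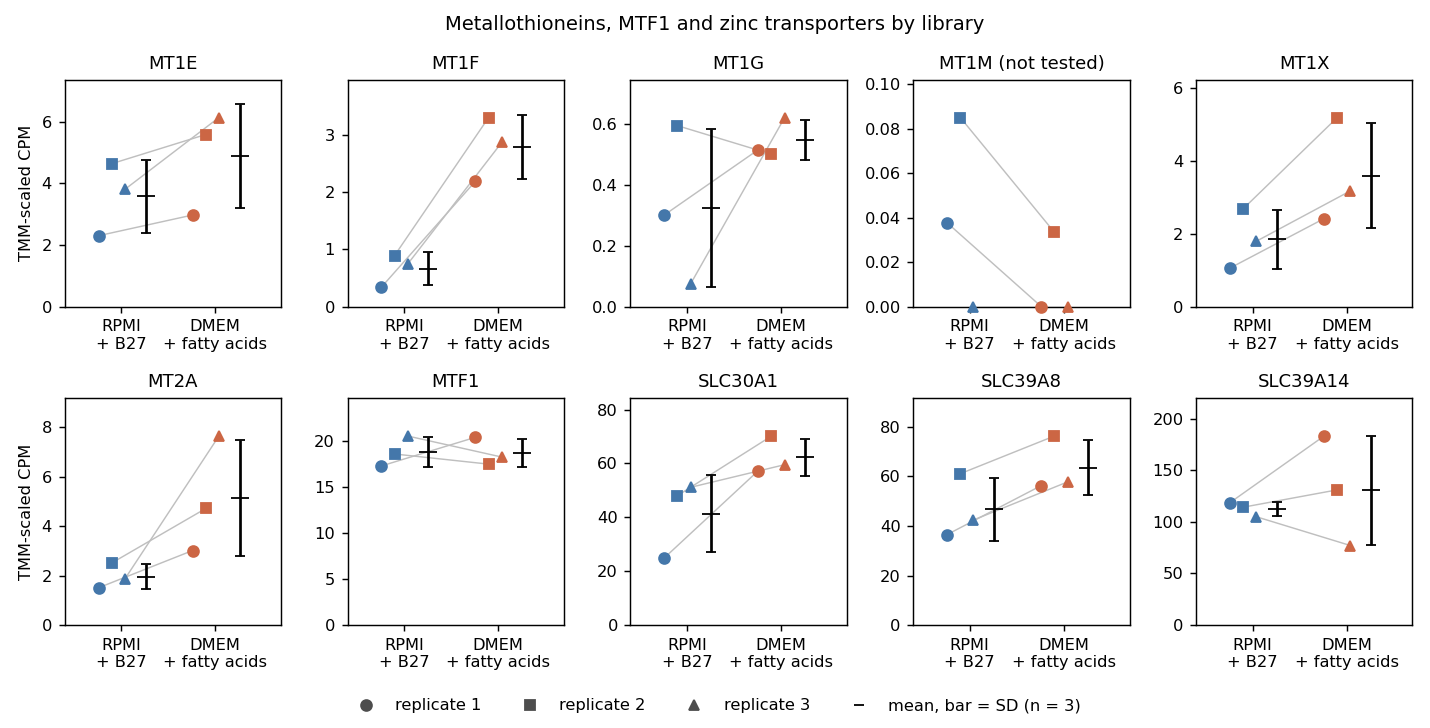
TMM-scaled CPM of the 10 genes (vertical axes, linear from 0, a different scale in each panel) in the 3 RPMI plus B27 libraries (blue) and the 3 DMEM plus fatty acids libraries (orange). Marker shapes give the replicate number, grey lines join libraries of the same number, and black bars are mean ± SD (n = 3, left out for MT1M, which was not tested). MT1F, MT2A and SLC30A1 are the genes whose media do not overlap, and every grey line rises for MT1E, MT1F, MT1X, MT2A, SLC30A1 and SLC39A8.

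The metallothioneins differed in how far apart their media lay, and so their make-up differed. The 6 together held 147, 268 and 222 counts in RPMI plus B27 and 258, 578 and 690 in DMEM plus fatty acids, which is 5.54, 11.4 and 8.28 CPM against 11.1, 19.3 and 20.5 CPM. The sum was 2.01, 1.70 and 2.47 times as high in DMEM plus fatty acids in pairs 1, 2 and 3, although RPMI plus B27 replicate 2 lay above DMEM plus fatty acids replicate 1. MT1F supplied 6.12%, 7.84% and 9.01% of these counts in RPMI plus B27 and 19.8%, 17.1% and 14.1% in DMEM plus fatty acids. The 95% Wilson intervals of MT1F reached 13.5% at most in RPMI plus B27 and began at 11.7% at the lowest in DMEM plus fatty acids. MT1E supplied 41.5%, 40.7% and 45.9% in RPMI plus B27 against 26.7%, 28.9% and 30.0% in DMEM plus fatty acids, with intervals that began at 33.8% and ended at 33.5%. The shares of MT1F and MT1E did not overlap between media, although the intervals of MT1F did. Shares are bound to a common sum, and the CPM of MT1E was itself higher in DMEM plus fatty acids in each pair. MT2A supplied 22.0% to 27.2% in RPMI plus B27 and 24.4% to 37.4% in DMEM plus fatty acids, and MT1X 19.0% to 23.5% and 15.5% to 26.8%, both with overlap. No p is given for a sum or share over these genes, and the intervals cover counting error only.

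**Figure D2:**
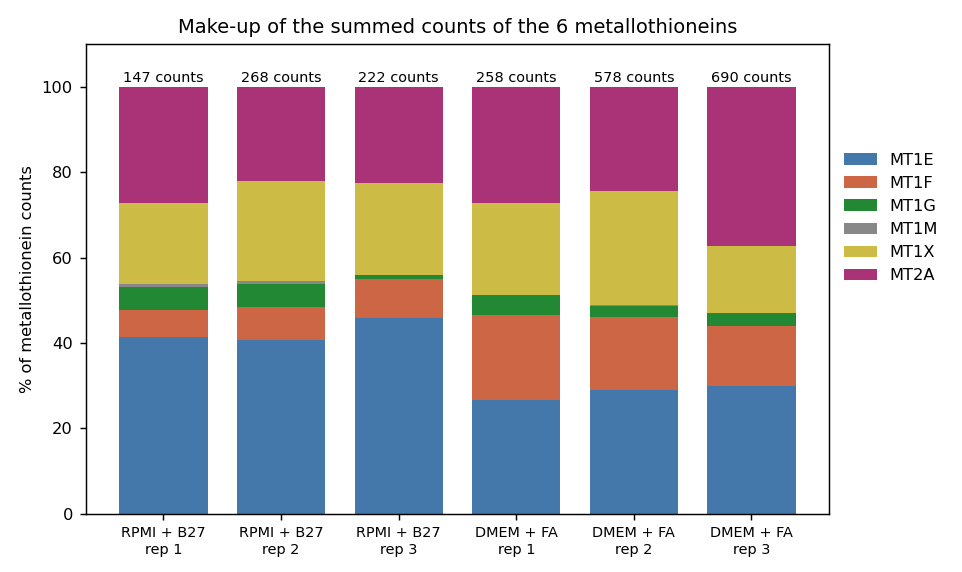
Share of the summed raw counts of the 6 metallothioneins that each gene supplied (vertical axis, percent, from 0) in each of the 6 libraries, with the summed count above each bar. The MT1F segment is 6.12% to 9.01% in RPMI plus B27 and 14.1% to 19.8% in DMEM plus fatty acids, while the MT1E segment is 40.7% to 45.9% and 26.7% to 30.0%.

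Of the other metallothionein genes, 10 of the 13 listed symbols were in the files and 6 of those had no count in any library (MT1A, MT1B, MT1DP, MT1IP, MT1JP and MT4). MT3, known from brain, was the single one tested, with 10, 12 and 5 counts in RPMI plus B27 and 17, 20 and 16 in DMEM plus fatty acids. Its log2 fold change was 0.80 ± 0.45 (SE) with an edgeR adjusted p of 0.399. MT1H had 0 to 9 counts, MT1HL1 0 to 4 and MT1L 0 to 3 in a library. The 6 genes chosen here held 90.7% to 96.5% of all metallothionein counts.

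MTF1, the factor that senses zinc, showed no such separation. It had 17.3, 18.6 and 20.5 CPM in RPMI plus B27 and 20.4, 17.5 and 18.3 CPM in DMEM plus fatty acids, with overlap and with 1 of 3 pairs higher. This was a log2 fold change of -0.01 ± 0.14 (SE) with an edgeR adjusted p of 0.985, and its sign turned to 0.10 under scaling by total counts, which moves the median of all tested genes from 0.01 to 0.12. MTF1 was the steadiest of the 9 tested genes in DMEM plus fatty acids, where its coefficient of variation was 8.08%. Its transcript level does not measure its activity, which is set by zinc binding.

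SLC30A1, the exporter under MTF1 control, had 24.9, 48.0 and 51.1 CPM in RPMI plus B27 and 57.3, 70.2 and 59.5 CPM in DMEM plus fatty acids. The media did not overlap, and RPMI plus B27 replicate 1 was far below the other libraries. The mean was 41.4 ± 14.3 CPM against 62.3 ± 6.87 CPM (SD, n = 3 each), 1.51-fold, with pair ratios of 2.30, 1.46 and 1.16. The log2 fold change was 0.59 ± 0.26 (SE) with an edgeR adjusted p of 0.299, and 0.65 ± 0.19 with 0.115 under the replicate block. Without RPMI plus B27 replicate 1 it was 0.33 with an adjusted p of 0.304. SLC30A1 had 661 to 2098 counts a library, against 9 to 258 for MT1E, MT1F, MT1X and MT2A.

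The importers did not share one pattern. SLC39A8 had 36.5, 61.1 and 42.4 CPM in RPMI plus B27 and 56.3, 76.3 and 57.8 CPM in DMEM plus fatty acids. Its media overlapped through RPMI plus B27 replicate 2, but the pair ratios were even, at 1.54, 1.25 and 1.36. Its log2 fold change was 0.44 ± 0.22 (SE) with an edgeR adjusted p of 0.343, and 0.46 ± 0.11 with 0.0700 under the replicate block. The gene AC098487.1 overlaps 3.04% of its exonic length on the same strand. SLC39A14 had 118.7, 114.2 and 105.0 CPM in RPMI plus B27, the tightest set among the 9 tested genes, and 183.2, 131.1 and 77.1 CPM in DMEM plus fatty acids. Its pair ratios were 1.54, 1.15 and 0.734, so replicate 3 went the other way from replicates 1 and 2. The log2 fold change was 0.21 ± 0.28 (SE) with an edgeR adjusted p of 0.738, and it turned to -0.11 without DMEM plus fatty acids replicate 1.

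**Figure D3:**
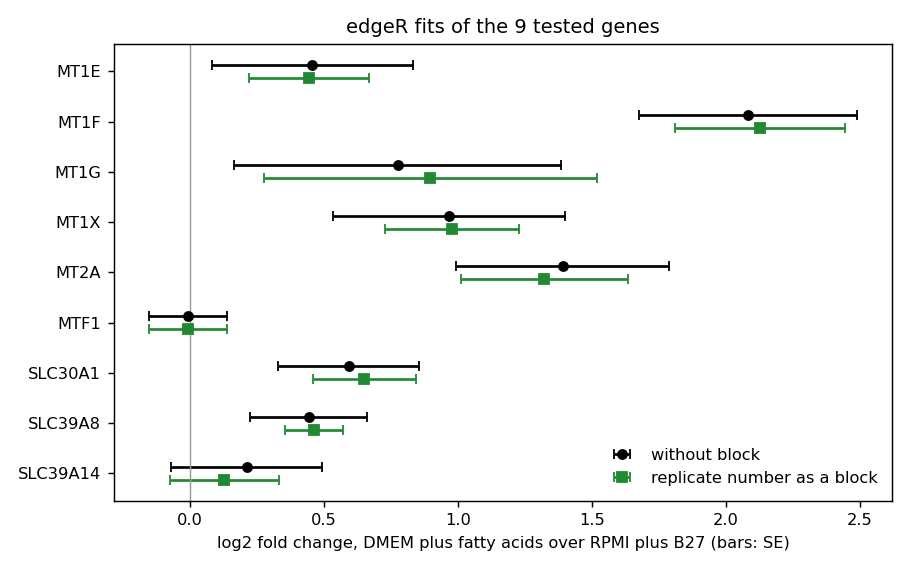
Log2 fold change (horizontal axis, positive where DMEM plus fatty acids was higher, bars are standard errors) for the 9 tested genes, by edgeR without a block (black circles) and with a block for the replicate number (green squares). MT1F lies highest, at 2.08 and 2.13, MTF1 lies at -0.01 in both, and the bars are shorter with the block for MT1E, MT1F, MT1X, MT2A, SLC30A1, SLC39A8 and SLC39A14.

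Levels of different genes were compared per kilobase of the principal GENCODE transcript. In RPMI plus B27 the order was SLC39A14 (24.3 ± 1.51 CPM per kb), SLC39A8 (14.4 ± 3.96), SLC30A1 (7.55 ± 2.62), MT1E (5.09 ± 1.68), MT1X (4.09 ± 1.81), MT2A (2.49 ± 0.647), MTF1 (2.36 ± 0.205), MT1F (0.956 ± 0.416) and MT1G (0.800 ± 0.645), as CPM per kb with SD over 3 libraries. From SLC30A1 down to MTF1 each gene overlapped its neighbour in range, as did MT1F and MT1G, while SLC39A14, SLC39A8 and SLC30A1 were separate from each other and MTF1 was separate from MT1F. In DMEM plus fatty acids the transporters again had the highest means, with SLC39A14 at 28.1 ± 11.4, SLC39A8 at 19.6 ± 3.45 and SLC30A1 at 11.4 ± 1.26 CPM per kb. There SLC39A14 (16.6 to 39.5) overlapped SLC39A8 (17.4 to 23.6). MT1X, at 11.5 in replicate 2, reached into the range of SLC30A1 (10.5 to 12.8). MT1X (7.98 ± 3.18), MT1E (6.96 ± 2.40) and MT2A (6.52 ± 2.98 CPM per kb) overlapped each other. MT1F, at 4.05 ± 0.814 CPM per kb, lay above MTF1 (2.35 ± 0.190) there and below it in RPMI plus B27, without overlap in either medium. The place of the metallothioneins depends on the gene model: per kilobase of merged exons MT1F had 1.48 CPM in DMEM plus fatty acids, below the 2.33 of MTF1. By either length each metallothionein had a lower mean level than the exporter in both media. Reads set aside as shared between genes are missing from these levels, and the lengths were not adjusted for read length. The order of metallothioneins and exporter is therefore uncertain.

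Among themselves the members fell into a group that varied together and a remainder. Over the 6 libraries, with no p since the points share libraries and media, log2 CPM of MT1X and SLC39A8 correlated at a Pearson's r of 0.97, MT1F and MT2A at 0.90, MT1F and SLC30A1 at 0.90, and MT1E and MT1X at 0.85. After the mean of each medium was taken off, MT1F and SLC30A1 still correlated at 0.94, MT1X and SLC39A8 at 0.95 and MT1F and MT1X at 0.92. MT2A kept 0.89 with MT1E but fell to 0.62 with MT1F, 0.54 with MT1X, 0.42 with SLC39A8 and 0.38 with SLC30A1. SLC39A14 and MT2A had -0.88 on these deviations. RPMI plus B27 replicate 1 was the lowest of the 6 libraries for 7 of the 9 tested genes, so these correlations lean on that library.

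Genes outside the family whose pattern was most like that of the summed metallothioneins were sought among the 10028 others whose mean reached 10 CPM. The 5 highest Pearson's r over the 6 libraries were those of ABHD6 (a monoacylglycerol hydrolase, 0.992), APP (the amyloid precursor protein, 0.989), RWDD2B (0.986), METTL8 (an RNA methyltransferase, 0.986) and PLPP3 (a phospholipid phosphatase, 0.985). The 3 lowest were POGK (-0.996), MAP4 (a microtubule-associated protein, -0.995) and PTK2 (focal adhesion kinase, -0.992). With 6 libraries such values are common: 246 genes had an r of at least 0.9 and 284 of at most -0.9. SLC39A8 had an r of 0.88 and SLC30A1 of 0.86 with the same sum, against -0.14 for MTF1 and -0.24 for SLC39A14.

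The other zinc transporters showed no call in either direction. Of the other SLC30A genes, most of which export zinc or load it into vesicles, 8 of 9 were tested. Their median log2 fold change was -0.04, with 4 positive and values from -0.35 to 0.24. The smallest p values belonged to SLC30A7 (a Golgi zinc transporter, -0.35 ± 0.23), SLC30A6 (0.24 ± 0.16) and SLC30A4 (-0.21 ± 0.18), as log2 fold changes with SE and with edgeR adjusted p values of 0.476 to 0.581. Of the other SLC39A importers 9 of 12 were tested, with a median of -0.06 and 3 positive, beside a median of 0.01 over all tested genes. SLC39A1 (ZIP1) had 59.8, 56.0 and 56.5 CPM in RPMI plus B27 and 44.8, 43.7 and 45.7 CPM in DMEM plus fatty acids, a difference of -0.36 ± 0.10 (log2, SE) with an edgeR adjusted p of 0.141. SLC39A10 (ZIP10) differed by -0.41 ± 0.16 and SLC39A4 (ZIP4, the intestinal importer) by -0.83 ± 0.29, with edgeR adjusted p values of 0.241 and 0.195. These 3 importers were lower in DMEM plus fatty acids without overlap between media, as were 12.8% of all tested genes, and SLC39A11, named after its values were seen, was higher without overlap (0.56 ± 0.25, edgeR adjusted p 0.306).

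Genes of copper handling were tested for 13 of 14 symbols, with a median of 0.12 and 1 called lower, where 1.07% of all tested genes were. LOX, the copper-dependent collagen cross-linking enzyme, fell by 3.72 ± 0.62 on the log2 scale (edgeR adjusted p 0.0442), from 125.8, 65.0 and 24.3 CPM to 4.74, 8.06 and 3.47 CPM. LOX is also a product of stromal cells, and its call was lost in 5 of the 6 fits that left out a library, all but that without RPMI plus B27 replicate 3, and without RPMI plus B27 replicate 1 the difference was -3.04. The copper exporter ATP7B had -0.48 ± 0.20 and COX11, a copper chaperone of cytochrome oxidase, 0.28 ± 0.12. Iron and manganese handling had 0 calls among 16 tested genes and a median of -0.05. At an unadjusted p under 0.05 there were 3, all higher, where 7.70% of all tested genes were higher. DESeq2 called 1, STEAP3, higher, where 2.01% of genes with an adjusted p were. STEAP3, a ferrireductase of endosomes, had 1.70 ± 0.40 (edgeR adjusted p 0.0948), the ferritin heavy chain FTH1 0.47 ± 0.15, and the ferritin receptor NCOA4 0.36 ± 0.13, each as log2 fold change with SE. These 3 of the 16 were higher without overlap between media, as were 12.8% of all tested genes.

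Heavy metals and oxidants induce a further set of genes. Of 15 such genes tested, 14 had a positive log2 fold change, as had 51.0% of all tested genes, and the median was 0.39. By edgeR 0 were called and 5 had an unadjusted p under 0.05 (all higher), and DESeq2 called 3. Over all genes 7.70% were higher at that unadjusted level and 2.01% were called higher by DESeq2. SLC7A11, the cystine importer, had 3.62, 1.40 and 1.27 CPM in RPMI plus B27 and 33.1, 7.49 and 15.8 CPM in DMEM plus fatty acids. Its log2 fold change was 3.15 ± 0.64 (SE) with an edgeR adjusted p of 0.0676, and 0.00833 under the replicate block, where it was the single call of this list. HMOX1, haem oxygenase, went from 1.09, 1.45 and 0.708 CPM to 7.58, 2.88 and 2.79 CPM (2.02 ± 0.50, edgeR adjusted p 0.106). SESN2, a stress-induced sestrin, had 0.80 ± 0.20 with an adjusted p of 0.108. Without DMEM plus fatty acids replicate 1 the log2 fold change was 2.46 for SLC7A11 and 1.38 for HMOX1, and without RPMI plus B27 replicate 1 that of SLC7A11 was 3.81. The library order differed from that of the metallothioneins: SLC7A11 and HMOX1 were highest in DMEM plus fatty acids replicate 1, in which MT1E, MT1F, MT1X and MT2A were lowest of that medium.

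Glucocorticoid response genes, 12 of 12 tested, had a median of -0.45 with 4 positive and 0 called by edgeR. At an unadjusted p under 0.05 there were 1 higher and 4 lower. Over all 16107 tested genes 2848 passed that level, 1240 of them higher. The replicate block called 4 lower, where 3.42% of all tested genes were. DESeq2 called 1 higher and 3 lower, against 364 and 850 of 18077 genes with an adjusted p. ERRFI1, an inhibitor of epidermal growth factor receptor signalling, had -1.97 ± 0.38, and KLF9, a Krüppel-like factor, had -2.51 ± 0.48, with edgeR adjusted p values of 0.0596 and 0.0600 and, with the block, 0.0349 and 0.0289. Without RPMI plus B27 replicate 1 these were -1.37 for ERRFI1, with an edgeR adjusted p of 0.0414, and -1.80 for KLF9. The receptor itself, NR3C1, had 0.52 ± 0.11 (adjusted p 0.0738). The interleukin 6 and acute phase genes had a median of -0.57 over 10 tested genes with 0 called (2 lower at an unadjusted p under 0.05, 1 called by DESeq2), led by OSMR (-1.54 ± 0.53), JUNB (-0.74 ± 0.30) and SOCS3 (-1.07 ± 0.48). Without RPMI plus B27 replicate 1 OSMR had -0.85 and SOCS3 -0.26. Hypoxia response genes had a median of -1.52 over 13 tested genes, with 3 called lower (LDHA, BNIP3 and P4HA2) and 7 with the block. Over all tested genes these shares were 1.07% and 3.42%. DESeq2 called 8 of the hypoxia genes lower. Leaving out 1 library at a time, LDHA and BNIP3 lost the call in 5 of 6 fits (all but that without RPMI plus B27 replicate 3) and P4HA2 in 6 of 6.

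**Figure D4:**
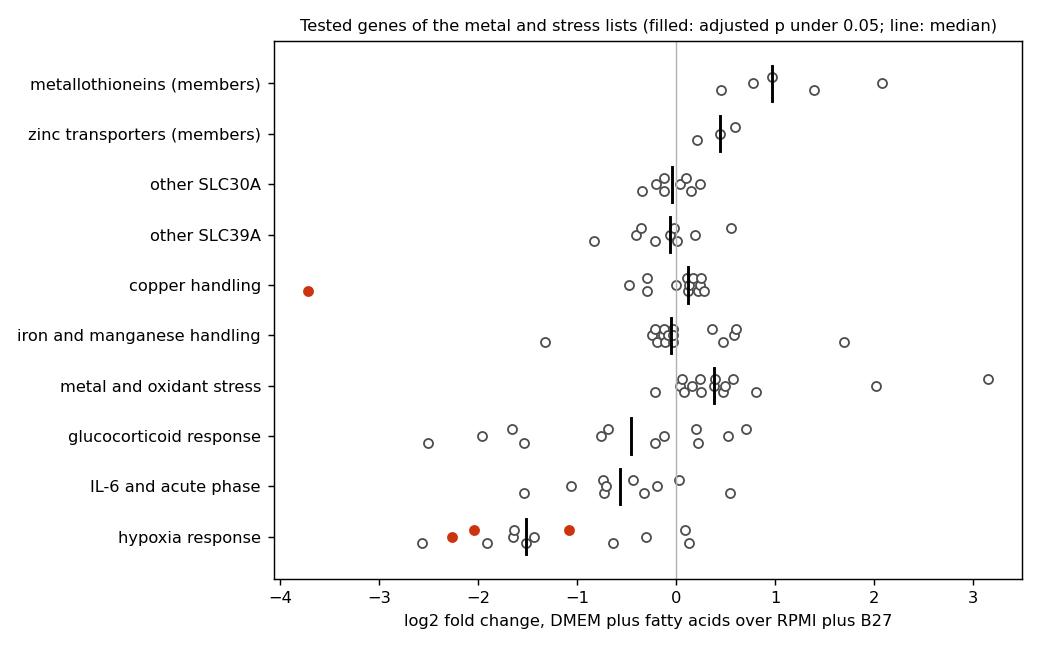
Log2 fold change (horizontal axis, positive where DMEM plus fatty acids was higher) of each tested gene in 10 lists (rows), with filled points for an edgeR adjusted p under 0.05 and a vertical line at the median of a list. The medians are 0.97 for the metallothioneins, -0.04 and -0.06 for the other SLC30A and SLC39A genes, 0.39 for metal and oxidant stress and -1.52 for the hypoxia response, and the filled points are LOX and 3 hypoxia genes.

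The cell types in the cultures bear on these values, since in bulk RNA fewer cells of a type and less RNA per cell cannot be told apart. Cardiomyocyte markers were present at 24581 to 37325 CPM summed over 12 genes in every library, with 0 of 12 called, 2 called lower with the replicate block, and TNNT2 (cardiac troponin T) at 3001 to 4216 CPM. The block called ACTN2 (sarcomeric alpha-actinin), with a mean of 2218 CPM in RPMI plus B27 and 1109 CPM in DMEM plus fatty acids, and MYH7 (beta myosin heavy chain), with 9638 and 4000 CPM. MYH6 (alpha myosin heavy chain) had 4758 and 8653 CPM. These 3 did not overlap between media. Of the 12 markers 3 were lower and 1 higher without overlap, where 12.8% of all tested genes separated in each direction. DESeq2 called 2 of the 12 lower and 1 higher. The edgeR adjusted p values of ACTN2, MYH7 and MYH6 without the block were 0.155 to 0.166. Fibroblast and stromal markers summed to 7317 to 15195 CPM in RPMI plus B27 and 1161 to 2872 CPM in DMEM plus fatty acids. Of these markers 5 of 12 were called lower, where 1.07% of all tested genes were. Smooth muscle markers (6 genes, 1604 to 2040 CPM against 357 to 1176 CPM) and epicardial markers (8 genes, 1974 to 2399 CPM against 885 to 1098 CPM) had 1 call each, both lower. With the replicate block 9 stromal, 2 smooth muscle, 4 epicardial and 3 hepatocyte and endoderm markers were called lower, the last with 0 calls otherwise. Over all tested genes the block called 3.42% lower and 1.36% higher. The block also called 1 of the 3 tested endothelial markers higher, while DESeq2 called 1 of them lower and edgeR without the block called 0. Hepatocyte and endoderm markers, from cells known for high metallothionein and SLC39A14 levels, summed over 11 genes to 16.0 to 320.9 CPM in RPMI plus B27 and 7.84 to 52.3 CPM in DMEM plus fatty acids. ALB was at 0 in replicate 1 of both media and at most 1.53 CPM elsewhere, so these sums came mainly from other genes of the list. The 7 tested genes of the list all had a negative log2 fold change, from -3.80 to -0.49, with a smallest edgeR adjusted p of 0.339. Endothelial markers (6 genes) summed to 30.1 to 239.8 CPM in RPMI plus B27 and 115.3 to 463.7 CPM in DMEM plus fatty acids, and pluripotent cell markers (6 genes) to 16.8 to 58.1 CPM and 24.7 to 62.1 CPM. The part of these cell types in the metallothionein and transporter values was not tested.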

How the data were processed

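Each of the 6 deposited files holds the raw counts of 1 library by gene symbol. STAR, HTSeq and hg38 are named in the submitters' processing notes, without versions, and the annotation, strand setting and read length are not given in the sources used here. Summary rows were kept out: reads assigned to no gene were 5.44% to 7.57% of a library, those overlapping several genes 3.90% to 4.15%, and those aligned to several places 3.05% to 4.10%. Counts from the authors were tested with edgeR 4.0.16 (R 4.3.3): filterByExpr defaults (minimum count 10, minimum total 15), TMM, the quasi-likelihood test over all 6 libraries without covariates, and Benjamini-Hochberg adjustment. Standard errors follow from the F statistic, and the fit was tested on simulated data. DESeq2 1.42.0, other scalings and filters, a replicate block and each left-out library were the alternatives. Deviations of libraries sharing a replicate number correlated at 0.313, 0.428 and 0.365 (other numbers -0.242 to -0.136). Deviations cancel within a medium, so the negative values of other numbers are partly forced. Pair ratios follow these numbers, which come from the titles. The main fit ignores this pairing, and only the replicate block uses it.

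Log2 CPM for correlations used a prior count of 2. Exonic lengths, transcripts and overlaps came from GENCODE 29 (GRCh38), and promoters from the RefSeq table, which matched 5 of the 10 genes. The genes and lists were chosen with earlier results of these data known. Named genes are the 10 members, up to 3 with the smallest p of each metal or stress list, and the 5 most and 3 least alike to the metallothioneins. TNNT2, ACTN2, MYH6, MYH7, ALB, MT3 and the other metallothionein rows were named in addition, after their values were seen.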

Additional observations from a re-analysis of the deposited data

How the results depend on the processing

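Of the 9 tested genes, 0 were called by edgeR, with RLE size factors, with total-count scaling, with at least 10 counts in every library, and in each fit that left out 1 library (0 to 0). The exceptions were 1 gene with no filter (MT1F, 2.09, adjusted p 0.0261), 1 with the replicate block (MT1F) and 2 by DESeq2. MT1F and MT1G could not be fitted with at least 10 counts in every library, which left 7 of the 9. Over all genes, 219 calls became 539 with no filter, 119 with at least 10 counts in every library, 1214 by DESeq2, 770 with the replicate block and 3 to 131 when 1 library was left out. The block, which leaves 2 residual degrees of freedom in place of 4, changed no call of a member other than MT1F. The sign of MTF1 turned to 0.0993 under total-count scaling, 0.00446 with no filter, and without RPMI plus B27 replicate 3, DMEM plus fatty acids replicate 2 or replicate 3, with a range of -0.0775 to 0.0626 over the left-out libraries. SLC39A14 turned to -0.115 without DMEM plus fatty acids replicate 1, with a range of -0.115 to 0.484. The cause was not tested. MT1E, MT1F, MT1G, MT1X, MT2A, SLC30A1 and SLC39A8 stayed positive in every alternative that gave a value. Counting limits MT1G and MT1M, with 0 to 21 counts a library.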
